A study of Mus musculus with 6 samples.

Results

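The gene set described here holds 10 immediate early transcription factors: Egr1, Egr2, Egr3, Nr4a1, Fos, Fosb, Jun, Junb, Jund and Klf6. Members were taken by gene name from the deposited table, where each name matched 1 row, so the set is 10 of 55421 listed genes and 10 of the 24646 genes with a read. All 10 passed the minimum of a mean of 10 normalized reads over the libraries and were among the 13562 genes tested.

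Immediate early genes are switched on without new protein synthesis, through kinases that act on transcription factors already bound at their promoters. In B cells the B cell receptor and CD40 are known inducers, and tissue dissociation and cell sorting are known to induce many of the same genes. FOS proteins bind DNA only as partners of JUN proteins, in the dimers called AP-1, while EGR, NR4A1 and KLF6 proteins bind through zinc fingers.

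RNA came from sorted germinal centre B cells, activated B cells that diversify their antibody genes in lymphoid follicles. The SFR KO group (3 libraries) came from C57BL/6 mice that carry a green fluorescent protein (GFP) reporter and a deletion that starts in the first intron of Cd244 and ends in the eighth exon of Slamf6. It takes in Cd244, Ly9, Slamf7, Cd48, Slamf1, Cd84 and Slamf6, genes of SLAM family surface receptors. The wildtype group (3 libraries) carried the same reporter without the deletion. Both groups were immunised with ovalbumin coupled to the hapten NP at a ratio of 18, in alum, and splenocytes were taken on day 9. GFP-positive cells were sorted, so the population is defined by activity of the reporter and not by surface markers. The sources used here give neither the age of the mice nor whether each library is 1 mouse, and the spread on which the p-values rest may therefore be technical.

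Libraries held between 28269310 and 33053024 reads assigned to genes. The 7 deleted genes together had 5.5 to 16.8 normalized reads in SFR KO libraries and 10457 to 20669 in wildtype libraries. The germinal centre transcription factor gene Bcl6 was high in every library, with 13496.4, 14052.8 and 14234.9 normalized reads in SFR KO 1, 2 and 3 and 15051.8, 16046.3 and 14731.8 in wildtype 1, 2 and 3, lower in every SFR KO library (limma adjusted p = 0.245). Of the 10 germinal centre markers listed, all tested, 6 were above and 4 below 0 in SFR KO. Limma and edgeR called none, DESeq2 called 1, and 3 had an unadjusted p below 0.05. Of 12 neutrophil, monocyte and macrophage markers, all had a mean of at least 10 normalized reads and none was at 0; their sum was 3753.2, 1136.4 and 1591.2 in SFR KO 1, 2 and 3 and 8426.6, 2004.3 and 1643.4 in wildtype 1, 2 and 3. T cell markers (10 of 10 tested) summed to 893.5 to 1066 in SFR KO and 467.2 to 960.7 in wildtype libraries, and plasma cell markers (6 of 7 tested) to 34250 to 35140 in SFR KO and 31330 to 32000 in wildtype libraries. The sums overlapped between groups for red cell, platelet and stromal markers, among which Gp1bb and Dcn were at 0. Limma and edgeR called 0 genes of these marker lists. Over all tested genes, 16.1% had an unadjusted limma p below 0.05, and limma called 0.465%, edgeR 0.221% and DESeq2 4.53%. Among T cell markers the median log2 difference was 0.71, with 7 of 10 above 0 and 5 at an unadjusted p below 0.05, and DESeq2 called 0. Among myeloid markers it was -0.98, with 8 of 12 below 0, 0 at an unadjusted p below 0.05 and 0 called by DESeq2. Of the 6 plasma cell markers tested, 3 were above and 3 below 0 (median log2 difference -0.03), and 3 reached an unadjusted p below 0.05. DESeq2 called 1, Jchain, which made up most of the plasma cell sum, with means of 25650 in SFR KO and 22570 in wildtype libraries. Of the red cell, platelet and stromal markers tested, 1 stromal gene had an unadjusted p below 0.05 and DESeq2 called 0. The part of other cells in the values below was not tested. SFR KO 1 stood apart from SFR KO 2 and 3 in resting follicular B cell markers (8 of 8 tested), whose sum was 18982, 11424 and 11346 in SFR KO 1, 2 and 3 and 16037 to 19968 in wildtype libraries. Of these 8 genes, 7 were below 0 (median -0.30), 5 had an unadjusted p below 0.05, limma and edgeR called 0 and DESeq2 called 1. The number of genes called over the whole table depended on that library (63 with it, of which 21 were higher and 42 lower in SFR KO; without it 214 were higher and 266 lower). For the members, values without single libraries are given below where they change a result. Such values are not given for single genes outside the set, so whether calls of those genes hold without single libraries is not shown.

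Sequences upstream of the start site are shown for 4 members picked by their values: Klf6, Jund, Fos and Fosb. Klf6 was higher in every SFR KO library than in any wildtype library, and Jund was lower. Values of Fos and Fosb varied widely between libraries. No upstream sequence was available for Egr1 and Egr3. Each run is the 250 bases before the start site, 5′ to 3′ on the strand of the gene, from RefSeq on build GRCm38.p6. Capitals mark matches, on either strand, to a site for CREB factors (TGACG), an AP-1 site (TGACTCA), a variant AP-1 site (TGACATCA), an EGR site (GCGGGGGCG or GCGTGGGCG), a TATA box (TATAAA) or the CArG box bound by serum response factor.
Klf6 (chr13:5861239-5861488, plus strand): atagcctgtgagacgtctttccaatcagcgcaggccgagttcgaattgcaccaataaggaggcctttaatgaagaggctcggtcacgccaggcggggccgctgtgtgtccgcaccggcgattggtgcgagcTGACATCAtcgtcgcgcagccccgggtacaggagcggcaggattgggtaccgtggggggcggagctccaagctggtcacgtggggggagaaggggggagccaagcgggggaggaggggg
Jund (chr8:70697489-70697738, plus strand): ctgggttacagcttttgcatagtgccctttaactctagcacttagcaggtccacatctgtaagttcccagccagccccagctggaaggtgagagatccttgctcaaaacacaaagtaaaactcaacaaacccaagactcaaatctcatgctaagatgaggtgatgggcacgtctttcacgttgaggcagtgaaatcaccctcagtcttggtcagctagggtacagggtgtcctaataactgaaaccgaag
Fos (chr12:85473640-85473889, plus strand): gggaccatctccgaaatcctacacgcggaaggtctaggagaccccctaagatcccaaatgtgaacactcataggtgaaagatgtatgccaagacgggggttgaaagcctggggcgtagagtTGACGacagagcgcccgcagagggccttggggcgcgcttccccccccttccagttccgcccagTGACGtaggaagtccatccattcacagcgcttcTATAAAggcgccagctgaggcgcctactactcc
Fosb (chr7:19310046-19310295, minus strand): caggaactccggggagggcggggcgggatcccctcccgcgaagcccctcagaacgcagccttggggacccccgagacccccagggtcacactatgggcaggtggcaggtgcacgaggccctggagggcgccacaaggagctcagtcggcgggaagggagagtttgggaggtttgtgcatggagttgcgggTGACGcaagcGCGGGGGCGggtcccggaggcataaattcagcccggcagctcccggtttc
The window of Fos held TGACG at positions -129 to -125 and -66 to -62 and TATAAA at -33 to -28, counted back from the start site at -1. That of Fosb held TGACG at -60 to -56 and GCGGGGGCG at -50 to -42, and that of Klf6 held TGACATCA at -119 to -112. The window of Jund held none of the motifs searched. This window ends at chr8:70697738, well upstream of the start that GENCODE M21 gives for Jund (chr8:70698949). The bases next to the GENCODE start were not searched, so the lack of matches does not describe them. The length used below is that of the GENCODE transcript. The table had 12 windows for 8 members, of which 5 belong to Egr2, some of them overlapping, so member windows are not independent. TGACG was found in 7 of the 12 windows (those of Fos, Fosb, Junb and Nr4a1 and some of Egr2), against 17.8% of all 32851 windows. The EGR site was found in 2 (Fosb and Nr4a1), against 3.06% of all windows. The CArG box was found in 4, all of Egr2, against 1.47% of all. TGACATCA was found in 2 (Klf6 and Jun), against 2.93% of all. TGACTCA was found in 0, against 4.46% of all, and TATAAA in that of Fos, against 12.4% of all. A match describes the letters of a window and is not a bound site.

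The members differed widely in level. Expressed per kilobase of the longest transcript, so that genes can be compared, the order from high to low was Jund, Junb, Klf6, Egr1, Egr3, Nr4a1, Egr2, Fos, Jun and Fosb, and the first stood 336 times above the last over the 6 libraries. Jund averaged 5341 ± 77.64 normalized reads per kilobase in SFR KO and 6327 ± 244.7 in wildtype libraries (SD, n = 3 each). Fosb averaged 20.61 ± 6.16 in SFR KO and 14.15 ± 4.66 in wildtype libraries. Among the first 5 of this order the ranges of neighbours did not overlap in either group. Egr3 and Nr4a1 did not overlap in SFR KO libraries but did in wildtype, where the lowest Egr3 value was 174.5 and the highest Nr4a1 value 175.8 per kilobase. Nr4a1 and Egr2 overlapped in SFR KO libraries, at 100.3 to 117 and 97.7 to 119.7 per kilobase, but not in wildtype. Egr2 and Fos overlapped in both groups, while Fos and Jun overlapped in wildtype but not in SFR KO libraries. Per length, the transcripts of Jund and Junb, which encode JUN type subunits of AP-1, were thus far more abundant than those of Jun, Fos and Fosb in every library.

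**Figure D1:**
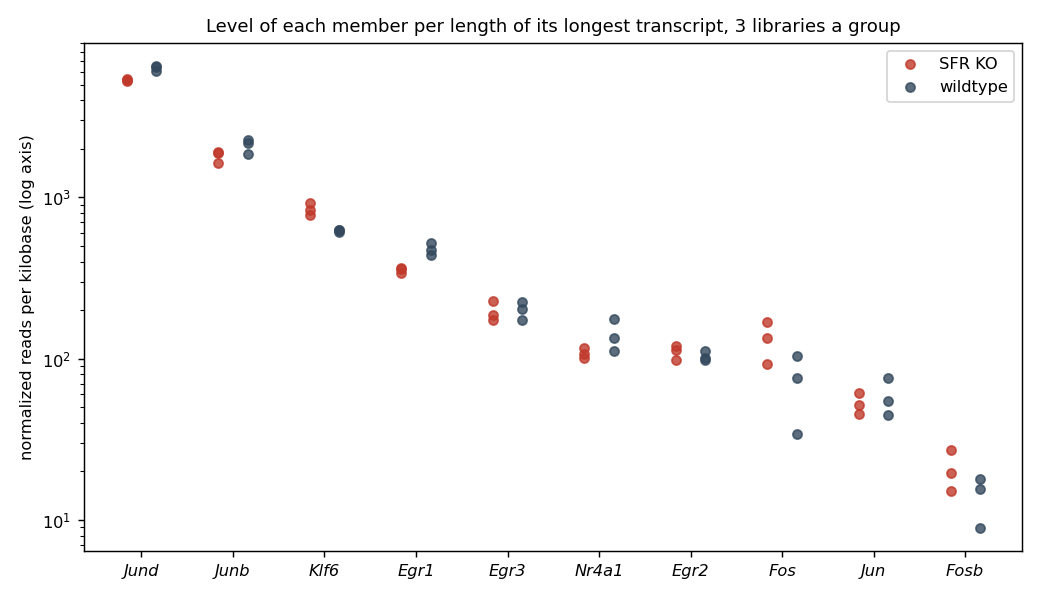
Normalized reads per kilobase of the longest transcript (log axis) for the 10 members in order of their mean level, with SFR KO libraries left and wildtype libraries right of each position; each point is 1 library. Jund lies between 5262 and 5417 in SFR KO and between 6056 and 6531 in wildtype libraries, while Fosb lies at or below 27.24 in all 6.

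The comparison of SFR KO with wildtype asks how loss of the SLAM receptors alters the transcripts of germinal centre B cells. Of the 10 members, Klf6 rose and Egr1 fell in SFR KO libraries (limma, Benjamini-Hochberg adjusted p under 0.05 over all 13562 tested genes). Calls made up 0.155% of tested genes in the higher and 0.31% in the lower direction, against 1 of 10 members in each. The members were chosen with earlier results of these data known, so these rates cannot show an excess among them. Neither call held after each library's trend with GC content was removed (limma adjusted p = 0.0957 for Klf6 and 0.117 for Egr1). With upper quartile scaling the calls over all genes split into 37 higher and 30 lower in place of 21 and 42, and Egr1 missed the threshold. On the recovered reads edgeR called Klf6 higher and no member lower, at rates over all tested genes of 0.0811% higher and 0.14% lower. DESeq2 called Klf6 higher and Egr1 and Jund lower, at rates of 1.72% higher and 2.8% lower. Groups did not overlap for 3 members, against 21.7% of all tested genes. Of these, Klf6 was higher, against 9.78% of tested genes, and Egr1 and Jund were lower, against 11.9%. An unadjusted p under 0.05 was reached by 5 members, against 16.1% of tested genes. The median log2 difference was -0.08 over the members and -0.00297 over all tested genes, with 4 members above 0 and 6 below. In bulk RNA, a change in the share of cells that express a gene and a change in RNA per cell cannot be told apart.

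**Figure D2:**
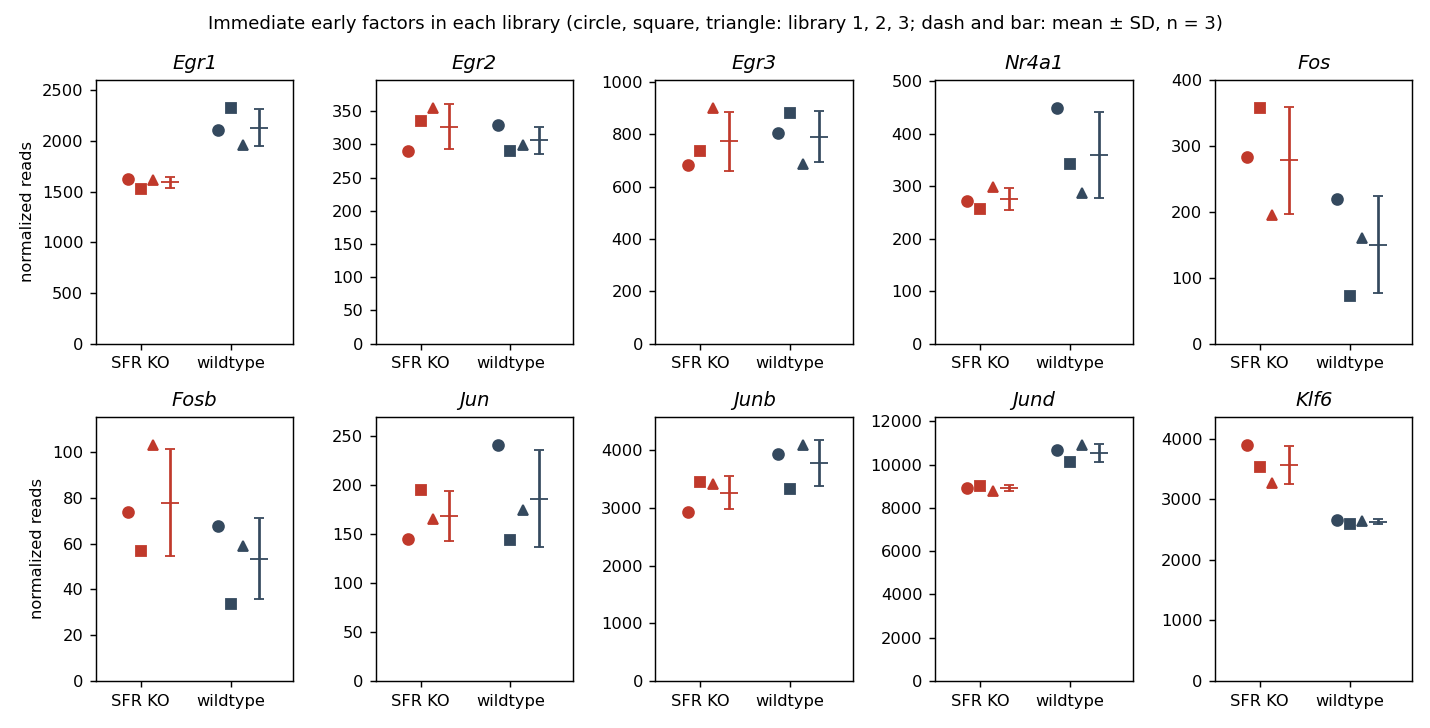
Normalized reads of each member by library, with SFR KO left and wildtype right in each panel, points for single libraries and a dash with bar for mean ± SD (n = 3); every axis starts at 0. For Klf6, Egr1 and Jund the points of the groups do not overlap, while those of the other 7 members do.

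Klf6 encodes a Krüppel-like zinc finger factor and was the member that rose. It had 3889.2, 3539.5 and 3273.3 normalized reads in SFR KO 1, 2 and 3, against 2659, 2591 and 2640.8 in wildtype 1, 2 and 3. Every SFR KO library was above every wildtype library, and the wildtype values had a coefficient of variation of 1.34%, against a median of 7.51% over all tested genes. The level was 1.35 times wildtype, a log2 difference of 0.44 ± 0.07 (SE; 95% interval 0.29 to 0.58; limma adjusted p = 0.0368). Klf6 (ENSMUSG00000000078) lies at chr13:5861482-5870394 on GRCm38. Its transcript has 42.4% GC, the lowest of the members and below the median of 49.43% over tested genes. Klf6 was called in 16 of 22 alternative settings. The call was kept in limma without SFR KO 1 (adjusted p = 0.0105) or SFR KO 3 (0.0253) but lost without SFR KO 2 (0.183), wildtype 1 (0.123), wildtype 2 (0.127) or wildtype 3 (0.11), at log2 differences of 0.37 to 0.50.

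Of 11 other KLF family genes 10 were tested, and their median log2 difference was -0.10. Limma called 0 of them, with 3 at an unadjusted p under 0.05, edgeR 0 and DESeq2 2. Rates over all tested genes were 0.465% for limma, 16.1% for an unadjusted p under 0.05, 0.221% for edgeR and 4.53% for DESeq2. Klf10, a KLF factor induced by TGF-beta, had 1165.7, 1436.4 and 1424.5 normalized reads in SFR KO and 1035.9, 846.2 and 959.8 in wildtype libraries, with no overlap (log2 difference 0.50 ± 0.10, limma adjusted p = 0.0676). Klf13, another factor of the family, had 4961.2, 4837.9 and 5007.8 in SFR KO and 6069.6, 5396.3 and 5561 in wildtype libraries, also without overlap but in the other direction (-0.20 ± 0.06, limma adjusted p = 0.137).

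Among the EGR factors, Egr1 fell, while the groups overlapped for Egr2 and Egr3. EGR1 is an early activator of receptor-induced genes, and EGR2 and EGR3 are known to restrain lymphocyte activation. Egr1 had 1627.8, 1529.4 and 1612.8 normalized reads in SFR KO and 2108.1, 2325.3 and 1958.3 in wildtype libraries. All 3 SFR KO values were below all 3 wildtype values, and the level was 0.748 times wildtype (95% interval of the log2 difference -0.58 to -0.26). Its limma adjusted p of 0.0486 lay close to the threshold. The call was kept without SFR KO 1 (0.0199) and lost without SFR KO 2 (0.214), SFR KO 3 (0.117), wildtype 1 (0.138), wildtype 2 (0.143) or wildtype 3 (0.0926), and it was also lost with edgeR (0.0527), TMM scaling (0.0502) and GC correction (0.117). Egr2 had 289.7, 336.1 and 355 normalized reads in SFR KO and 328.9, 290.3 and 299.6 in wildtype libraries, with overlapping groups and a log2 difference of 0.09 (95% interval -0.17 to 0.35; limma adjusted p = 0.761). Egr3 had 683.8, 737.9 and 901 in SFR KO and 803.6, 881.1 and 687.6 in wildtype libraries, a difference of -0.03 (-0.31 to 0.24; limma adjusted p = 0.928). The estimate for Egr1 lies below both of these intervals, but its own interval overlaps that of Egr3. With single libraries left out, Egr2 ran from 0.03 to 0.17 and Egr3 from -0.15 to 0.05.

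Within a library, the share of each EGR gene in their summed level per kilobase does not depend on the library's scaling. The share of Egr1 was 57.2%, 53.15% and 50.8% in SFR KO 1, 2 and 3 and 59.9%, 61.7% and 61.3% in wildtype 1, 2 and 3, so that the groups did not overlap. It averaged 53.7% ± 3.26 in SFR KO and 61% ± 0.965 in wildtype libraries (SD, n = 3 each), a difference of -7.25 percentage points. The shares of Egr2 and Egr3 were higher by 3.335 and 3.91 points. Shares of a family add up to the whole, so these rises and the fall of the Egr1 share are not separate results, and tests of shares within a family are not independent. Each of the 3 comparisons gave a two-sided exact permutation p = 0.1, the smallest that 3 against 3 libraries allow, and p = 0.267 after adjustment over 8 shares. The EGR shares were added after the values of the members had been seen.

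**Figure D3:**
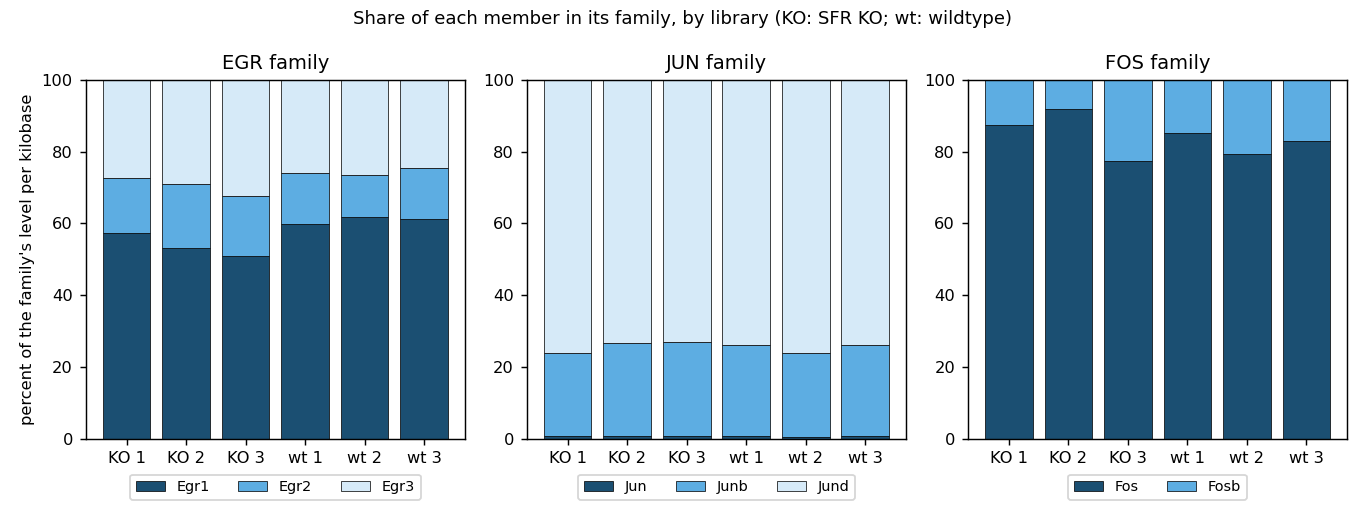
Percent of the summed level per kilobase taken by each member of the EGR, JUN and FOS families, with 1 stacked bar per library and SFR KO libraries left of wildtype. The Egr1 segment ends between 50.8% and 57.2% in SFR KO and between 59.9% and 61.7% in wildtype libraries, while the JUN and FOS shares overlap between groups.

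None of the JUN genes was called by limma, and the groups did not overlap for Jund alone among them. Jund, the most abundant member (ENSMUSG00000071076, chr8:70698949-70700616 on GRCm38), had 8915.5, 9035.4 and 8776.6 normalized reads in SFR KO and 10667.5, 10101.3 and 10893.5 in wildtype libraries. The groups did not overlap and the libraries were tight, with coefficients of variation of 1.45% in SFR KO and 3.87% in wildtype. The level was 0.845 times wildtype, a log2 difference of -0.24 (95% interval -0.35 to -0.14), which missed the threshold over all genes (limma adjusted p = 0.0609). It passed in 6 of 22 alternative settings, among them DESeq2 on the recovered reads (adjusted p = 0.000795) and the fit without SFR KO 1 (0.0306). Junb had 2933.4, 3450.8 and 3407.2 in SFR KO and 3933.7, 3335.6 and 4086.2 in wildtype libraries. Wildtype 2 lay within the SFR KO range (log2 difference -0.21, 95% interval -0.41 to -0.01; limma adjusted p = 0.282). The difference was -0.14 without SFR KO 1, -0.30 without wildtype 2 and -0.09 with the GC trend of protein-coding genes removed. Jun had 144.8, 194.9 and 165.8 in SFR KO and 240.6, 143.6 and 174.7 in wildtype libraries, with overlapping groups (-0.12, -0.58 to 0.34; limma adjusted p = 0.823), and the difference turned to 0.08 without wildtype 1.

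Jund made up 74.2% ± 1.74 of the summed JUN level per kilobase in SFR KO and 74.7% ± 1.34 in wildtype libraries, Junb 25% ± 1.67 in SFR KO and 24.6% ± 1.25 in wildtype, and Jun 0.733% ± 0.09025 in SFR KO, against 0.686% ± 0.164 in wildtype (SD, n = 3 each). The differences were -0.45, 0.41 and 0.05 percentage points (two-sided exact permutation p = 0.6, 0.6 and 0.7). Their signs were not stable to single libraries: Jund was at -1.45 points without SFR KO 1, 0.105 without SFR KO 3 and 0.318 without wildtype 2, and Junb at 1.37, -0.157 and -0.305 points without the same libraries. Exons of Junb overlap those of Prdx2 on the other strand, and exons of Jund overlap the antisense gene Gm11175. The sources used here do not give the strand setting of the counting, so reads of these pairs may be mixed. Prdx2 had 4218 ± 305.4 normalized reads in SFR KO and 4229 ± 209.7 in wildtype libraries (SD, n = 3 each; log2 difference -0.00493). Gm11175 had 251.9 ± 68.13 in SFR KO and 246.4 ± 9.88 in wildtype libraries. Jun overlaps the antisense gene Junos, which averaged 3.17 normalized reads over the libraries.

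Fos and Fosb, which encode FOS type subunits of AP-1, varied widely between libraries. Fos (ENSMUSG00000021250, chr12:85473890-85477273 on GRCm38) had 282.8, 358 and 194.8 normalized reads in SFR KO 1, 2 and 3 and 219.3, 71.8 and 160.5 in wildtype 1, 2 and 3. SFR KO 2 was the highest library and wildtype 2 the lowest, and SFR KO 3 lay below wildtype 1, so that the groups overlapped. Coefficients of variation were 29.3% in SFR KO and 49.3% in wildtype libraries, against medians over all tested genes of 8.51% in SFR KO and 7.51% in wildtype. The fitted level was 1.98 times wildtype, the largest fitted ratio of the members, with a log2 difference of 0.98 ± 0.37 (SE; 95% interval 0.14 to 1.82) that missed the threshold (limma adjusted p = 0.241). It was 0.52 without wildtype 2 and 1.32 without wildtype 1. Fosb had 73.9, 56.9 and 103 in SFR KO and 67.8, 33.8 and 58.9 in wildtype libraries, also with overlap (0.55, -0.16 to 1.26; limma adjusted p = 0.435). Its difference was 0.26 without wildtype 2 and 0.33 without SFR KO 3. Fos took 85.5% ± 7.48 of the summed FOS level per kilobase in SFR KO and 82.5% ± 3.08 in wildtype libraries (SD, n = 3 each; two-sided exact permutation p = 0.5). The difference of 2.96 points was -0.24 without SFR KO 2, 7.07 without SFR KO 3 and 1.3 without wildtype 2.

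Nr4a1 encodes the nuclear receptor Nur77, which is widely used as a reporter of antigen receptor signals. It had 272, 256.2 and 298.8 normalized reads in SFR KO and 448.7, 341.6 and 286.4 in wildtype libraries. Wildtype 3 lay within the SFR KO range and wildtype 1 far above it, at coefficients of variation of 7.81% in SFR KO and 23% in wildtype. The log2 difference was -0.36 (95% interval -0.72 to 0.01; limma adjusted p = 0.32), and -0.18 without wildtype 1. Within the wildtype group, wildtype 1 was the highest library for 6 of the 10 members and wildtype 2 the lowest for 7. Within the SFR KO group no library was the highest for more than 4 members or the lowest for more than 4. Wildtype 1 also had the highest sum of myeloid markers, 8426.6 normalized reads, whose part in the wildtype 1 values was not tested. For Fos, the highest library, SFR KO 2, had the lowest myeloid sum of all 6, 1136.4. Within the wildtype group, Fos was highest in wildtype 1 (219.3 normalized reads), which had the highest myeloid sum. The relation of Fos to the myeloid sum was not tested.

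**Figure D4:**
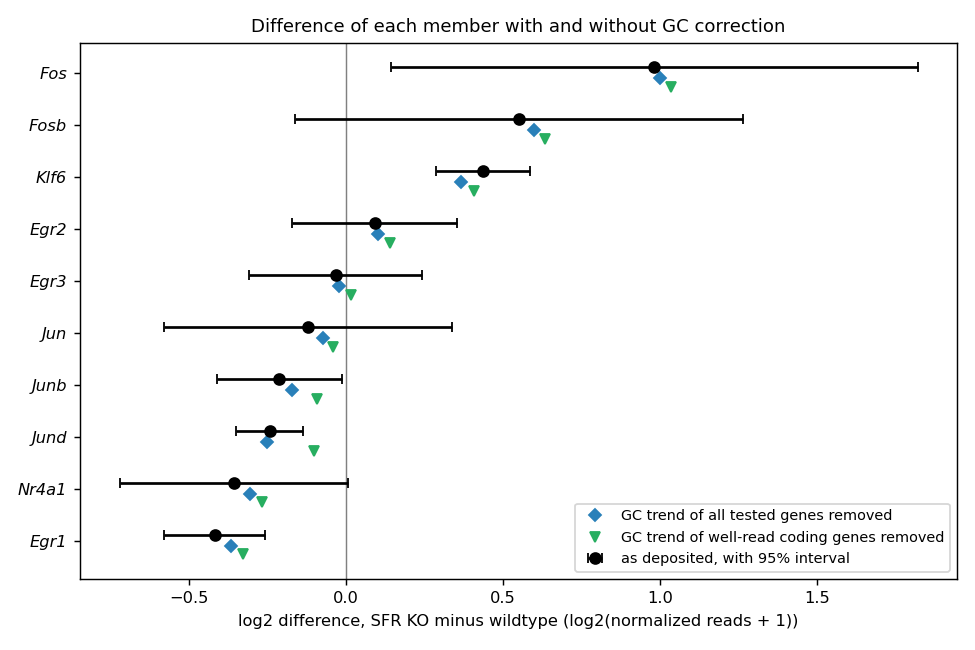
Log2 difference of SFR KO minus wildtype for the 10 members, sorted by size, with 95% intervals from limma on the deposited values and with 2 GC-corrected estimates below each. The intervals of Klf6 and Fos lie above 0 and those of Egr1, Jund and Junb below 0. The interval of Fos spans 0.14 to 1.82 and is the widest.

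Base composition moved with the differences. Over 13539 tested genes with a GC content, which are not independent of each other, the log2 difference fell with the GC content of the longest transcript (Spearman's rho -0.272). Of the 10 members, 9 were above the median GC content of tested genes and Klf6 was below it. The member with the most GC was Jund at 67.1%, followed by Junb at 62.6%, Egr1 at 57.3% and Nr4a1 at 57%, all with fitted values below 0. Next came Fosb at 56% (0.55) and Jun at 55.5% (-0.12). Fos at 51.9% (0.98), Egr2 at 51.4% (0.09) and Egr3 at 51.3% (-0.03) followed, so the signs were mixed among these. After each library's trend with GC over all tested genes was removed, Klf6 was at 0.37 ± 0.07 (limma adjusted p = 0.0957), Egr1 at -0.37 ± 0.08 (0.117) and Jund at -0.25 ± 0.05 (0.11). Limma then called 0 members, against 0.0516% of tested genes called higher and 0.103% lower. With the trend taken from protein-coding genes alone, at a minimum mean of 200 normalized reads, an alternative added after the data were seen, Klf6 was at 0.41 ± 0.07 (0.0818), Egr1 at -0.33 ± 0.08 (0.1465) and Jund at -0.10 ± 0.06 (0.46). Without SFR KO 1, also an added alternative, the first correction left Klf6 (0.31, limma adjusted p = 0.0328) and Jund (-0.29, 0.0198) called, and Egr1 not (-0.38, 0.0579). The estimate for Jund thus depended on which genes defined the trend, while those of Klf6 and Egr1 kept most of their size. Fos and Fosb stood at 1.00 and 0.60 after the first correction.

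**Figure D5:**
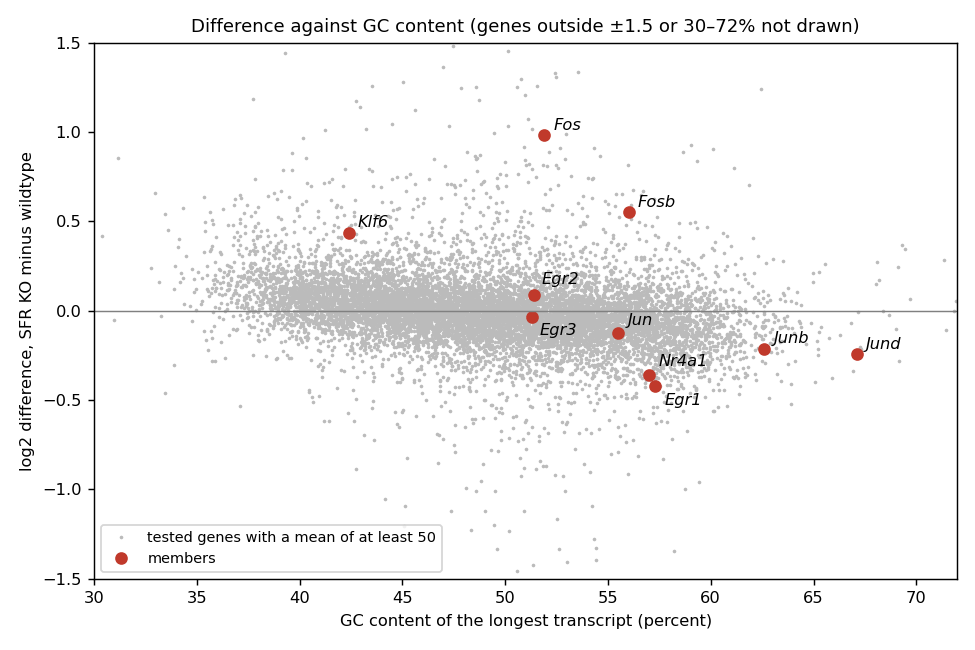
Log2 difference of SFR KO minus wildtype against the GC content of the longest transcript, with tested genes averaging at least 50 normalized reads in grey, apart from those beyond the axes, and the 10 members in red. Klf6 lies at 42.4% GC and 0.44, Jund at 67.1% and -0.24, and Fos and Fosb lie above 0 at 51.9% and 56% GC.

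In the authors' deposited table, 3 members had an adjusted p under 0.05, as did 4.8% of the 10360 genes with an adjusted p there. These were Klf6 (log2 fold change 0.44, adjusted p = 3.07e-06), Egr1 (-0.42, 0.000106) and Jund (-0.24, 0.0013) in the authors' deposited table. The other members had an adjusted p of 0.155 or more in the authors' deposited table, and Fosb had none.

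Of 17 further immediate early genes, Egr4, Nr4a2 and Fosl1 were below the minimum, and of the 14 tested 1 fell and 0 rose at a median log2 difference of -0.13. The unadjusted p was under 0.05 for 2 of them, and edgeR and DESeq2 called 1 and 2. The rates over all tested genes were 0.465% for limma, 0.221% for edgeR, 4.53% for DESeq2 and 16.1% for an unadjusted p under 0.05. The gene that fell was Myc, the growth regulator, with 1076, 1139.7 and 1282.2 normalized reads in SFR KO and 1715.1, 1653.5 and 1614 in wildtype libraries (-0.51 ± 0.07, limma adjusted p = 0.0322). Its limma adjusted p was 0.05685 with the GC trend removed. Of 9 tested bZIP partners of FOS and JUN (12 listed), 0 had an unadjusted p under 0.05 and limma, edgeR and DESeq2 each called 0, with a median of -0.03. Those with the smallest p were Atf2, at 0.17 ± 0.08 (limma adjusted p = 0.336), and the small MAF factor Mafk, at 0.14 ± 0.06 (0.337).

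Upstream of the members, all 9 genes for serum response factor, its cofactors and CREB factors were tested. Their median was -0.12. Limma called 0, with an unadjusted p under 0.05 for 4, and edgeR called 0 and DESeq2 1. Crtc2, a coactivator of CREB, had 1692.8, 1821.7 and 1705.5 normalized reads in SFR KO and 2142.4, 2148.9 and 2184.8 in wildtype libraries, without overlap (-0.31 ± 0.05, limma adjusted p = 0.0522). Mrtfa, a coactivator of serum response factor, was at -0.17 ± 0.05 (0.175). Of 18 genes of the RAS and MAP kinase pathway, all tested, the median was -0.02. Limma called 0, with 5 at an unadjusted p under 0.05, and edgeR called 0 and DESeq2 1. Rps6ka1, a ribosomal S6 kinase below ERK, was at -0.18 ± 0.04 (limma adjusted p = 0.112) and Map2k1, the kinase MEK1, at -0.18 ± 0.05 (0.157).

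Of 15 tested corepressors and feedback inhibitors (16 listed), the median was 0.05. Limma called 0, and 3 reached an unadjusted p under 0.05, while edgeR called 0 and DESeq2 1. Dusp6, a phosphatase of ERK that is itself induced by ERK signals, had 1514.5, 1398.1 and 1332.7 normalized reads in SFR KO and 1626.8, 1775.5 and 1753.1 in wildtype libraries, without overlap (-0.28 ± 0.07, limma adjusted p = 0.106). Cbl, a ubiquitin ligase that limits receptor signalling, was at -0.16 ± 0.06 (0.236). Of 17 genes induced by antigen receptor or CD40 signals, 2 fell and 0 rose, at a median of -0.12. An unadjusted p under 0.05 was found for 5, and edgeR called 1 and DESeq2 3. Those that fell were Myc, counted above among the immediate early genes too, and Cd83, a surface protein of activated B cells, with 7513.3, 7673.4 and 7362.4 normalized reads in SFR KO and 8957.1, 9210.9 and 9077.4 in wildtype libraries (-0.27 ± 0.04, limma adjusted p = 0.0464). The Cd83 call was lost with edgeR (0.0527) and after GC correction (limma adjusted p = 0.0957).

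Of 19 heat shock genes and other genes linked to cell handling, members left out, the median was -0.13. Limma called 0, with an unadjusted p under 0.05 in 7 of them, and edgeR called 0 and DESeq2 4. Their summed level was 224910, 238600 and 219870 normalized reads in SFR KO 1, 2 and 3 and 281490, 235610 and 271310 in wildtype 1, 2 and 3, with overlapping groups. A few abundant chaperone genes made up most of this sum, so it says little about the genes of the list at low level. Hsph1, a heat shock protein of the HSP110 family, had 7078.8, 8239.4 and 7220.9 in SFR KO and 12592.6, 9276.6 and 11644.1 in wildtype libraries, without overlap (-0.56 ± 0.11, limma adjusted p = 0.0555). Dnaja1, an HSP40 cochaperone, was at -0.32 ± 0.09 (0.139). Wildtype 2 was the lowest library of the wildtype group for Fos, Fosb, Jun, Junb and Jund, and also for Hsph1 and the summed level of the list. The part of handling in the values of the members was not tested. Transcripts of the mitochondrial genome (10 of 15 tested, the rest below the minimum) summed to 757380 to 761310 normalized reads in SFR KO and 463560, 660940 and 472420 in wildtype 1, 2 and 3. All 10 tested were above 0 (median log2 difference 0.50), 8 of them without overlap between groups, against 21.7% of all tested genes. Of these, mt-Rnr1 and mt-Rnr2, the ribosomal RNAs, named after their values were seen, passed limma's threshold (adjusted p = 0.0486 and 0.0322). Neither did after GC correction (0.163 and 0.11), and edgeR kept mt-Rnr2. Their part in the values of the members was not tested.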

How the data were processed

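RNA-seq of 6 libraries was used, 3 SFR KO and 3 wildtype, grouped by the genotype in the labels and numbered in accession order. The submitters' processing notes name build GRCm38 and the tools STAR 2.5, featureCounts 1.5 and DESeq2 1.14.1, without an annotation release or strand setting. The authors deposited gene read counts divided by a size factor per library (a signal) and their mean. Also deposited by the authors were the log2 fold change (KO over wildtype), its standard error and test statistic (scores), and raw and adjusted p-values.

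Reads were recovered by division, which gave whole numbers for 100% of values (tolerance 1e-06). Libraries of a group differed by more than sampling noise (chi-square per gene of at least 6.69). GENCODE M21 on the same build gave positions, lengths and GC content and matched 99.5% of genes.

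The main test was limma 3.58.1 (R 4.3.3; lmFit and trended eBayes) on log2(normalized reads + 1), two-sided. It covered genes whose mean reached 10, called at a Benjamini-Hochberg adjusted p under 0.05. This scale understates the change of low genes. Alternatives were DESeq2 1.42.0 and edgeR 4.0.16 (quasi-likelihood) run on the reads, other scalings, filters and pseudocounts, array weights, a robust prior, removal of GC or length trends (natural spline, 4 degrees of freedom) and each library left out. The tests were checked on simulated counts in which every gene had the same spread beyond sampling noise and no library stood apart. The real libraries differ from this, so the check does not show how the tests behave on them. Members and gene lists were chosen with earlier results of these data known. All members are named, and of each pathway list up to 4 called genes or, with none called, the 2 with the smallest p. Cell type marker and mitochondrial lists are given as sums and counts; Bcl6 was named after its values were seen, and 1 germinal centre marker is not reported here.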

Additional observations from a re-analysis of the deposited data

How the results depend on the processing

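Of 220 recomputed member differences, 190 kept their direction and side of the threshold, 17 lost a call, 6 gained one and 7 of uncalled members changed sign. Jun was at 0.0153 with array weights and 0.0318 without SFR KO 1 after GC correction, and ran from -0.2922 to 0.07815 with single libraries left out. Egr3 was at 0.01462 with the GC trend of protein-coding genes, 0.06228 without SFR KO 1 after GC correction, and -0.1471 to 0.05156 with single libraries left out. Over all genes, calls (higher and lower in SFR KO) were 11 and 19 with edgeR, 184 and 299 with DESeq2, 271 and 359 with array weights, 55 and 106 with a robust prior, 7 and 14 after GC correction, 7 and 9 with the protein-coding trend, 36 and 64 after length correction, 132 and 187 without SFR KO 1 after GC correction, and 47 and 82 without a filter. Genes called higher numbered 36 at a minimum mean of 1, 35 at 50 and 37 with upper quartile scaling. Leaving out 1 library gave 4 to 214 higher and 7 to 266 lower. Members called lower numbered 0 with TMM, upper quartile scaling, edgeR and both GC corrections, and 2 with DESeq2, array weights, a robust prior and length correction. Members called higher numbered 0 with both GC corrections. With 1 library left out, 0 to 1 members were higher, 0 to 2 lower, and 4 to 5 had groups that did not overlap. Fewer samples make such a gap easier, and its share over all tested genes was not computed with a library left out. The count of 4 to 5 therefore has no background to be read against. The cause of the other changes was not tested. All 64 recomputed share differences moved by less than 1 SD pooled over both groups. With 3 libraries a group, leaving out 1 library cannot move a difference that far, so this count does not measure stability to single libraries. Share differences of the JUN and FOS genes changed sign without some single libraries, and that of Egr1 ran from -9 to -5.78 points. Depth was least for Fosb, at 33.8 to 103 normalized reads per library. No paired analysis was possible because the labels give each sample its own number, shared by no other sample.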
